A study of Mus musculus with 12 samples.

Results

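The liver transcriptome of mice was followed at 8 h after an acute load of iron sulfate (FeSO4), without dexamethasone (DEX), from immediate-early transcription factors through ribosome synthesis and metabolism to immune and cell type markers. The comparison was chosen by label and took 6 of the 12 mice of the series, the 3 FeSO4/PBS mice and the 3 NaCl/PBS mice, with every gene that had enough reads. That left 13857 of 55414 genes. All 6 mice were female C57Bl/6J, used at an age of 8 to 12 weeks. FeSO4/PBS mice received 300 mg/kg FeSO4 intraperitoneally and NaCl/PBS mice 0.9% NaCl, both received PBS at 6 h as the vehicle of a second injection, and livers were taken 2 h after it. The other 6 mice had DEX (10 mg/kg) in place of PBS. The question was what an iron load that leads to lethal shock does to the liver transcriptome. The model is an acute overload, and each group stands for a single dose and a single time.

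Hepatocytes store iron and make the hormone that controls its uptake, and ferrous iron that is not bound reacts with peroxides to give radicals that attack lipids, proteins and DNA. Injured hepatocytes switch on immediate-early transcription factors within minutes to hours, followed by genes for protein synthesis, protein repair and secreted stress signals, while costly metabolic programmes can be turned down. Sinusoidal endothelial cells, Kupffer cells (the resident macrophages), stellate cells and blood leukocytes also add RNA to a whole liver sample.

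The 6 libraries held 16335651 to 23827340 counts, of which 4.70% to 6.42% came from mitochondrial genes. Alb (albumin), the defining hepatocyte transcript, had 1479600, 1569900 and 1829600 normalized counts in NaCl/PBS mice against 1942400, 1882200 and 2150700 in FeSO4/PBS mice. Normalized counts are reads scaled by edgeR's TMM factors to a mean library. LFC is the log2 fold change of FeSO4/PBS against NaCl/PBS mice, SE its standard error, and FDR the adjusted p of edgeR's quasi-likelihood test over all tested genes. A gene is said to have risen or fallen at an FDR of 0.05 or less, and is called a DEG where |LFC| was also above 1. FeSO4/PBS mouse 1 stood apart: the mean chi-square per gene was 89.5 and 71.4 for its pairs and 23.98 between mice 2 and 3, against 18.3 to 37.0 within the other groups. No pair of replicates agreed within sampling noise. Without it 1748 genes were higher and 1971 lower DEGs. The p-values rest on a spread between mice that was estimated over all 12 libraries, with the DEX mice included. A fit of the 6 libraries alone gave 1596 higher and 1973 lower DEGs. With 3 against 3 mice an exact permutation test of a single gene cannot go below p = 0.1.

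FeSO4 changed a large share of the liver transcriptome in both directions. At an FDR of 0.05 or less 3770 genes rose, 27.2% of those tested, and 3783 fell, 27.3%. Counts of list members given below are to be read beside these shares. The DEGs were 1730 higher (12.5%) and 2040 lower (14.7%), so that 45.9% of the DEGs were higher. All 3 FeSO4/PBS mice exceeded every control for 4022 genes, 29.0% of those tested, and were under every control for 4295, 31.0%. Over all tested genes the median LFC was -0.02. TMM factors were 0.896 to 0.952 in FeSO4/PBS mice and 1.14 to 1.16 in NaCl/PBS mice, so scaling mattered: by library size alone the all-gene median was -0.34, with 1183 higher and 3073 lower DEGs, of which 27.8% were higher. With upper quartile factors the median was -0.15, with 1458 higher and 2431 lower DEGs.

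**Figure D1:**
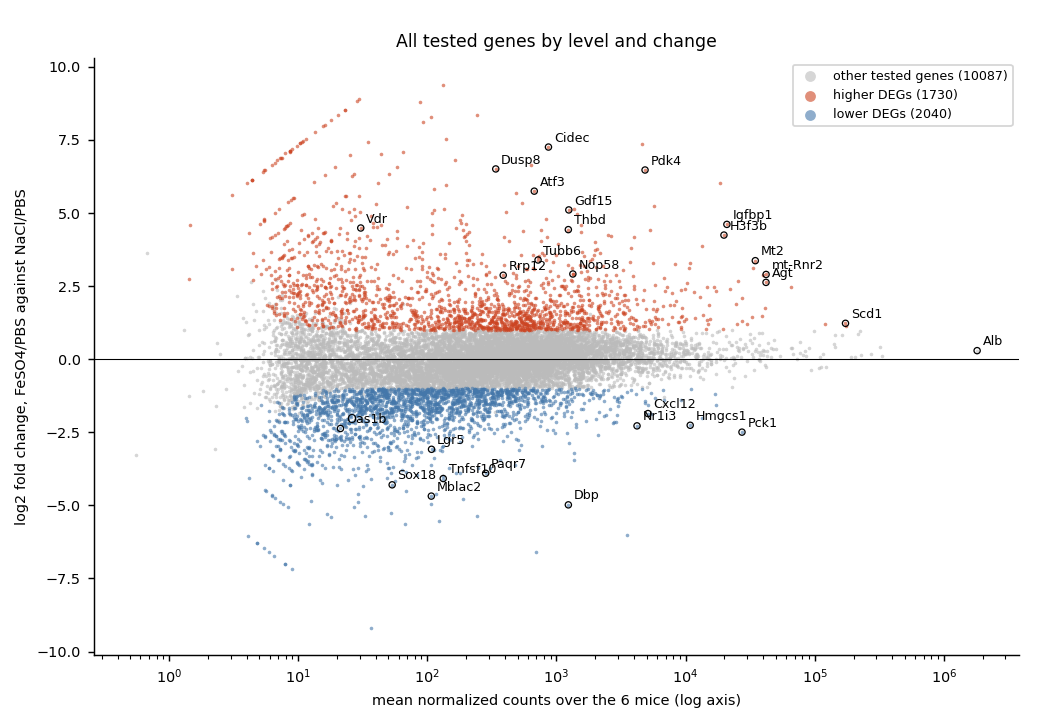
Each point is a tested gene, placed by its mean normalized counts over the 6 mice (log axis) and its LFC. Higher DEGs are red, lower DEGs blue and other tested genes grey. Circled genes are labelled. Genes at high levels that changed were mostly higher, such as Scd1, mt-Rnr2 and Mt2, with Pck1 and Hmgcs1 on the lower side.

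Among genes with at least 100 normalized counts in the higher group and no overlap, the 15 largest rises included lipid droplet, transport and signalling genes. Cidec, which fuses lipid droplets, had 5.75, 25.2 and 4.23 normalized counts in NaCl/PBS mice against 1832, 1442 and 1894 in FeSO4/PBS mice (LFC 7.26, SE 0.48, FDR 7.4e-08). Slc10a6, a transporter of sulfated steroids, had 0.72, 7.48 and 0.85 normalized counts in NaCl/PBS mice against 396, 195 and 379 in FeSO4/PBS mice (LFC 6.80, SE 0.52, FDR 2.1e-07). Adcy1, an adenylate cyclase, had 7.91, 22.4 and 8.46 normalized counts in NaCl/PBS mice against 1021, 1569.7 and 1195 in FeSO4/PBS mice (LFC 6.64, SE 0.40, FDR 4.0e-08). For these 3 genes every FeSO4/PBS mouse lay far above every NaCl/PBS mouse. Sphk1, which makes sphingosine-1-phosphate, rose with an LFC of 5.81. Tub, the tubby protein gene, was at or under 3 counts in each NaCl/PBS library and had 73.6, 202 and 111 normalized counts in the FeSO4/PBS mice, at least 51.6-fold higher than 3 counts per library would be. The rises of smallest p included Tnfrsf12a, the receptor of the cytokine TWEAK (LFC 4.42, SE 0.18, FDR 3.3e-09), Mrap, a partner of melanocortin receptors (LFC 4.43, SE 0.19, FDR 3.3e-09), and H3f3b, which encodes histone H3.3 (LFC 4.25, SE 0.19, FDR 3.8e-09). H3f3b went from 1880.2, 2378 and 1695 to 34862, 42551 and 35504 normalized counts, and its groups were far apart.

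Agt, the angiotensin precursor, had 10998, 10861 and 13193 normalized counts in NaCl/PBS mice against 71095, 89013 and 56460 in FeSO4/PBS mice (LFC 2.63, SE 0.21, FDR 3.4e-07). Slc25a47, a mitochondrial carrier of the liver, had 9204, 11432 and 8039.5 normalized counts in NaCl/PBS mice against 77034, 65280 and 68727 in FeSO4/PBS mice (LFC 2.88, SE 0.16, FDR 2.0e-08). In neither gene did the groups overlap. Fgg, the fibrinogen gamma chain, rose with an LFC of 1.12. Among genes with at least 100 normalized counts in the higher group and no overlap, the 15 largest falls included Dbp, a clock output factor (LFC -4.98, SE 0.34, FDR 8.9e-08), Mblac2, a hydrolase of the metallo-beta-lactamase fold (LFC -4.68, SE 0.30, FDR 5.4e-08), Sox18, an endothelial transcription factor (LFC -4.30, SE 0.34, FDR 3.1e-07), and Tnfsf10, the death ligand TRAIL (LFC -4.08, SE 0.28, FDR 8.0e-08). Among the same genes, with Rik and Gm names left out, Paqr7, a membrane progestin receptor, had the smallest p of any fall. It had 544, 528 and 519.7 normalized counts in NaCl/PBS mice against 31.2, 43.7 and 30.6 in FeSO4/PBS mice (LFC -3.90, SE 0.16, FDR 3.3e-09). Ogt, which adds O-linked N-acetylglucosamine to proteins, fell from 2331, 1849.6 and 2049 to 499, 503 and 598 normalized counts, with the groups apart.

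Gene classes moved unequally. Of 712 tested lncRNA genes, 16.9% were higher and 29.2% lower DEGs, with a median LFC of -0.51, against 11.9% and 13.7% of 12674 protein-coding genes, whose median was -0.01. LncRNA genes were ranked among DEGs without overlap, leaving out Rik and Gm names, with at least 100 normalized counts in the higher group. The largest rises of that ranking included hosts of small nucleolar RNAs, which guide the modification of ribosomal RNA. Snhg5 had 79.1, 56.1 and 67.7 normalized counts in NaCl/PBS mice against 859.8, 332 and 406 in FeSO4/PBS mice (LFC 2.97, SE 0.30, FDR 2.8e-06), and Snhg3 and Snhg15 had LFCs of 2.80 and 2.79. The Snhg family was counted after these values were seen: 9 of its 14 tested genes rose and none fell, with a median LFC of 1.66. Falling lncRNA genes included BC024386 (-2.14) and Oip5os1 (-1.96). In the zinc finger Zfp genes, mostly DNA-binding proteins without a known target, 58 of the 332 tested members rose and 142 fell (33 and 180 by library size alone), with a median LFC of -0.41, and the FeSO4/PBS mice had list medians of -0.51, -0.39 and -0.32 relative to the NaCl/PBS mean. Relative to all genes the Zfp median was -0.40, and -0.23 with at least 10 counts in every library. By level in NaCl/PBS mice, of 2458 genes under 30 normalized counts 26.0% were higher and 13.9% lower DEGs. Of 2147 genes at 30 to 100 normalized counts 10.6% were higher and 27.0% lower DEGs, against 7.29% and 3.65% of the 192 most abundant genes. The NaCl/PBS level also enters the LFC, and genes low there could pass the read filter through other groups. The shares by level therefore follow in part from the binning and the filter.

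**Figure D2:**
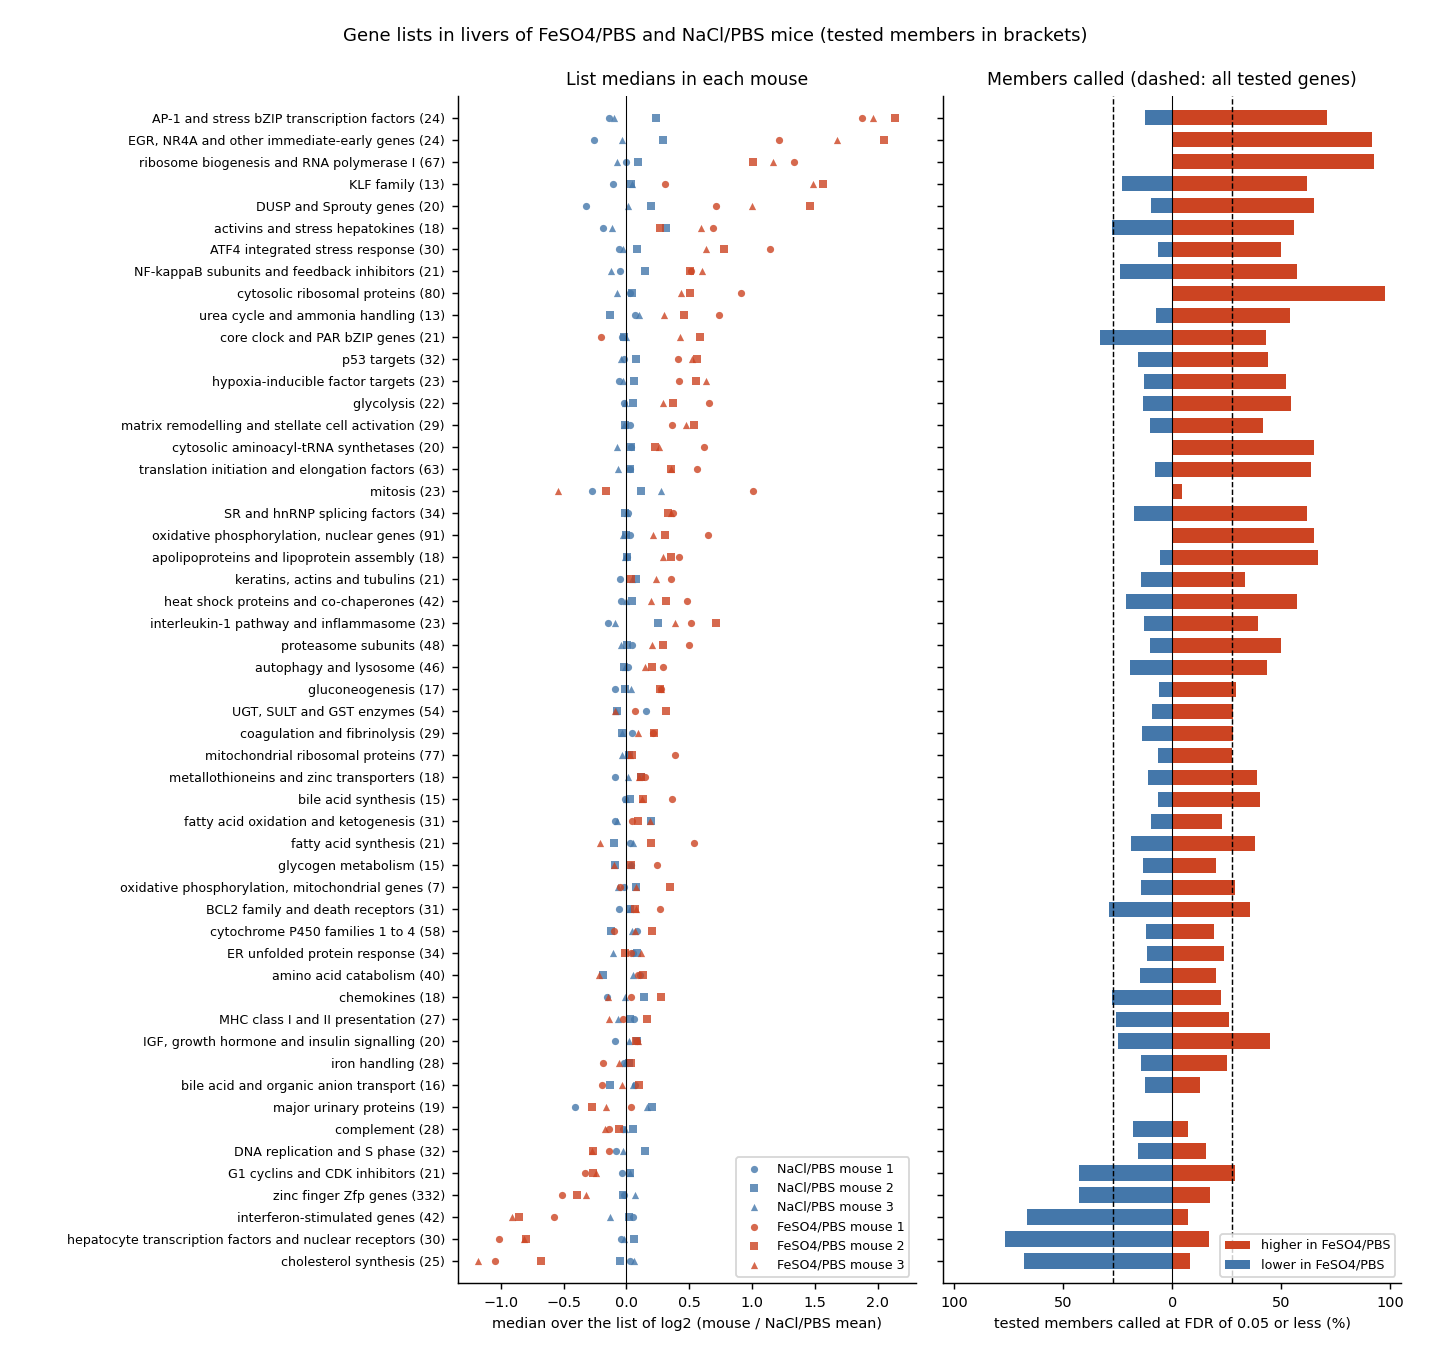
Gene lists ordered by median LFC. Left, the median over the tested members of log2 of each mouse relative to the NaCl/PBS mean, with blue points for NaCl/PBS and red for FeSO4/PBS mice and 1 marker shape per mouse. Right, the percentage of tested members that rose (red) or fell (blue), with dashed lines at 27.2% and 27.3% for all tested genes. AP-1, immediate-early and ribosome biogenesis lists stand at the top and cholesterol synthesis at the bottom, under the TMM scaling. Lists with medians near 0 change sign under other scalings.

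Immediate-early and stress transcription factors formed the top of the response. AP-1 and related bZIP factors, which bind DNA as pairs and turn kinase signals into transcription, had a list in which 17 of the 24 tested members rose and 3 fell (17 and 5 by library size alone), with a median LFC of 2.03. Jun, a core AP-1 subunit, had 152, 415 and 134 normalized counts in NaCl/PBS mice against 2334, 5337 and 3632 in FeSO4/PBS mice (LFC 4.02, SE 0.40, FDR 2.2e-06). Jund, a related subunit, had 916, 1043 and 905 normalized counts in NaCl/PBS mice against 6447, 7829 and 6409.8 in FeSO4/PBS mice (LFC 2.85, SE 0.14, FDR 7.4e-09). Atf3, a stress-induced bZIP factor, had 18.7, 41.1 and 15.2 normalized counts in NaCl/PBS mice against 452, 2318 and 1194 in FeSO4/PBS mice (LFC 5.75, SE 0.58, FDR 2.5e-06). None of these overlapped between groups, although NaCl/PBS mouse 2 was the highest control for all of them and FeSO4/PBS mouse 1 was the lowest treated mouse for Jun and Atf3. Cebpd, an acute-phase C/EBP factor, rose from 56.1, 199 and 94.8 to 1269, 1435 and 1564 normalized counts (LFC 3.63, SE 0.31, FDR 6.7e-07). The list was not uniform, as Batf2 fell (LFC -2.13, SE 0.72, FDR 0.023), although its call was lost without FeSO4/PBS mouse 1 or 3 or NaCl/PBS mouse 1 or 3.

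Other immediate-early genes rose almost as a block. In this list 22 of the 24 tested members rose and 0 fell (19 and 0 by library size alone), with a median LFC of 1.62. Myc, which drives growth and ribosome genes, had 71.2, 186 and 116 normalized counts in NaCl/PBS mice against 1002, 1966 and 1451 in FeSO4/PBS mice (LFC 3.58, SE 0.31, FDR 6.9e-07). Gadd45b, a stress sensor that acts on p38 and JNK kinases, had 48.2, 84.2 and 41.5 normalized counts in NaCl/PBS mice against 383, 2521 and 1908 in FeSO4/PBS mice (LFC 4.80, SE 0.53, FDR 5.5e-06). Nr4a1, an orphan nuclear receptor, had 29.5, 58.9 and 29.6 normalized counts in NaCl/PBS mice against 87.7, 663 and 351 in FeSO4/PBS mice (LFC 3.24, SE 0.53, FDR 1.6e-04). FeSO4/PBS mouse 1 was the lowest treated mouse in all of these and the groups still did not overlap. Egr1, the zinc finger factor most used as an immediate-early readout, passed the test (LFC 1.21, SE 0.39, FDR 0.018) with overlapping groups, 679.7, 1314 and 499 against 1078, 3231 and 1450 normalized counts, and the call was lost without FeSO4/PBS mouse 2, without NaCl/PBS mouse 1 or 3, and by library size alone. In the KLF zinc finger family 8 of the 13 tested members rose and 3 fell (8 and 5 by library size alone), with a median LFC of 1.22, with Klf6 up (LFC 3.75, SE 0.27, FDR 1.2e-07) and Klf16 down (LFC -2.86, SE 0.30, FDR 3.5e-06). The KLF list median was 0.31, 1.57 and 1.48 in FeSO4/PBS mice 1, 2 and 3, so mouse 1 was well below the other two.

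The inhibitors that these pathways switch on to limit themselves also rose. Among dual-specificity phosphatases, which take phosphate off MAP kinases, and Sprouty genes, which damp receptor tyrosine kinase signals, 13 of the 20 tested members rose and 2 fell (12 and 2 by library size alone), with a median LFC of 1.11. Dusp8, a phosphatase of JNK and p38, had 2.88, 18.7 and 1.69 normalized counts in NaCl/PBS mice against 493, 881 and 635 in FeSO4/PBS mice (LFC 6.51, SE 0.44, FDR 7.8e-08). Dusp1 had 215, 738 and 459 normalized counts in NaCl/PBS mice against 1857, 2989.8 and 2444 in FeSO4/PBS mice (LFC 2.37, SE 0.31, FDR 2.7e-05). NaCl/PBS mouse 2 was the highest control for both. Dusp7, which acts on ERK, fell (LFC -1.16, SE 0.24, FDR 0.0012). Among NF-kappaB subunits and their feedback inhibitors 12 of the 21 tested members rose and 5 fell (9 and 7 by library size alone), with a median LFC of 0.64, with rises of Bcl3, a nuclear IkappaB (2.47), and Nfkbib, a cytoplasmic one (2.21), and a fall of Ikbke, a kinase of interferon signalling (-1.43).

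**Figure D3:**
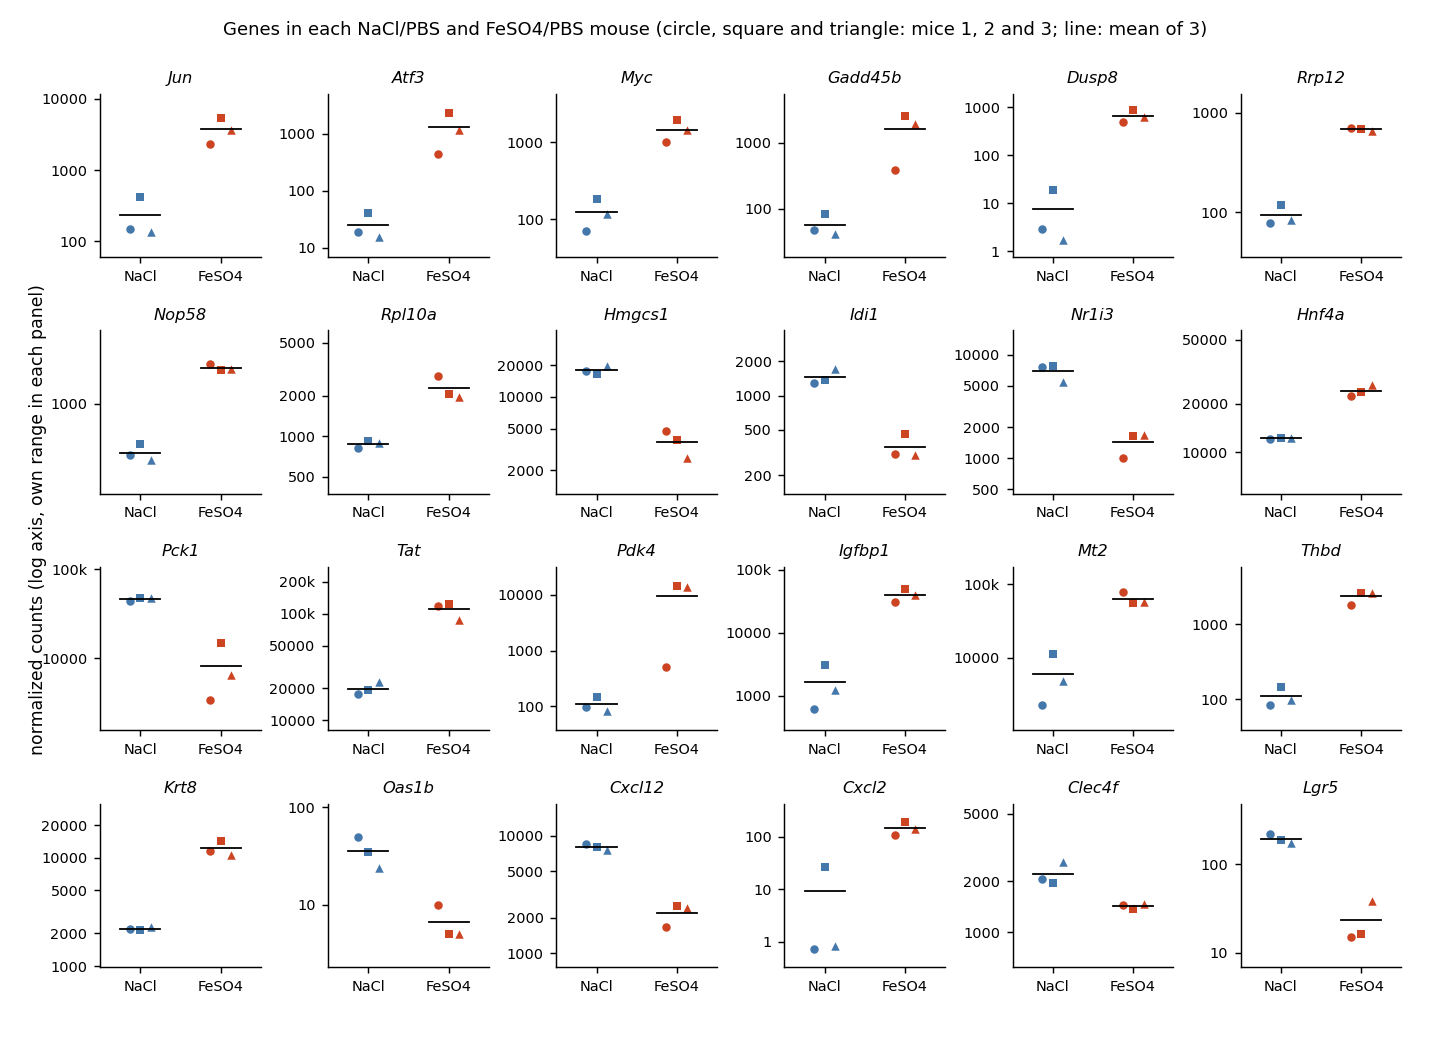
Normalized counts (log axis, own range per panel) of 24 genes in each mouse, with blue for NaCl/PBS, red for FeSO4/PBS, a marker shape for mice 1, 2 and 3 and a line at the mean of 3. The groups stand apart in all 24 panels. FeSO4/PBS mouse 1 lies well under the other two for Pdk4 and Gadd45b, and NaCl/PBS mouse 2 over the other controls for Jun, Dusp8, Mt2 and Cxcl2.

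The machinery that builds ribosomes rose in most of its members. Of ribosome biogenesis and RNA polymerase I genes 62 of the 67 tested members rose and 0 fell (55 and 1 by library size alone), with a median LFC of 1.23. Nop58, a core protein of box C/D small nucleolar particles, had 297, 385 and 259.9 normalized counts in NaCl/PBS mice against 2606, 2229 and 2261 in FeSO4/PBS mice (LFC 2.91, SE 0.16, FDR 2.0e-08). Rrp12, which exports preribosomes from the nucleus, had 78.4, 118 and 83.8 normalized counts in NaCl/PBS mice against 706, 686 and 650.4 in FeSO4/PBS mice (LFC 2.87, SE 0.16, FDR 2.5e-08). Rrp1b, a nucleolar processing factor, had 115, 158 and 83.0 normalized counts in NaCl/PBS mice against 1217, 1402 and 1375 in FeSO4/PBS mice (LFC 3.49, SE 0.19, FDR 2.0e-08). In all of these the FeSO4/PBS mice were close to each other and far above the controls. The same direction held for Polr1b, the second largest RNA polymerase I subunit (LFC 1.49, SE 0.14, FDR 1.5e-06), Nolc1, a nucleolar chaperone (LFC 2.00, SE 0.17, FDR 5.1e-07), and Ncl, nucleolin (LFC 0.72, SE 0.11, FDR 9.5e-05). The list took 0.145% ± 0.006 (SD, n = 3) of the counts in the NaCl/PBS mice and 0.278% ± 0.022 (SD, n = 3) in the FeSO4/PBS mice. Where a list is given with 0 rises or 0 falls, edgeR found 0 members in that direction at an unadjusted p under 0.05 and DESeq2 called 0. The exceptions were falls in the mitosis list and rises in the lymphocyte marker list, with 1 by edgeR and 1 by DESeq2 in each.

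Ribosomal proteins themselves rose by less, and more evenly. In the cytosolic ribosomal protein list 78 of the 80 tested members rose and 0 fell (44 and 0 by library size alone), with a median LFC of 0.63, and only 3 members rose more than 2-fold. The list median was 0.91, 0.50 and 0.43 in FeSO4/PBS mice 1, 2 and 3 and 0.03, 0.04 and -0.07 in NaCl/PBS mice, without overlap and with mouse 1 highest. Rpl10a had 819, 920.1 and 894 normalized counts in NaCl/PBS mice against 2812, 2062 and 1973 in FeSO4/PBS mice (LFC 1.38, SE 0.14, FDR 2.1e-06). Processed copies of ribosomal protein genes can share reads with them. Of translation initiation and elongation factors 40 of the 63 tested members rose and 5 fell (21 and 11 by library size alone), with a median LFC of 0.41. Eif1a, which scans for the start codon, had 879.7, 1075 and 679 normalized counts in NaCl/PBS mice against 4141, 4664 and 4452 in FeSO4/PBS mice (LFC 2.33, SE 0.15, FDR 5.4e-08), and Eif6, which keeps the large subunit free, had 762, 932 and 726 normalized counts in NaCl/PBS mice against 3612, 2486 and 2489 in FeSO4/PBS mice (LFC 1.83, SE 0.16, FDR 6.2e-07). Eif4ebp1, which restrains cap-dependent initiation, also rose (LFC 1.92, SE 0.14, FDR 1.5e-07), and Eif2ak2, an antiviral kinase that stops initiation, fell (LFC -0.68, SE 0.14, FDR 8.3e-04).

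Other parts of the gene expression machinery followed to different degrees. Among cytosolic aminoacyl-tRNA synthetases, which charge tRNAs, 13 of the 20 tested members rose and 0 fell (4 and 4 by library size alone), with a median LFC of 0.42, none beyond 2-fold. Of SR and hnRNP splicing factors 21 of the 34 tested members rose and 6 fell (10 and 9 by library size alone), with a median LFC of 0.41, with Hnrnpa1 (1.21) and Srsf3 (1.09) up and Hnrnph3 down (-1.21). Mitochondrial ribosomal proteins gave 21 rises and 5 falls among 77 members (7 and 21 by library size alone), with a median LFC of 0.19 that turned to -0.14 by library size alone. Their shares were 27.3% and 6.49%, against 27.2% and 27.3% of all tested genes, so they rose about as often as all genes. Nuclear genes of oxidative phosphorylation, the respiratory chain, gave 59 rises and no fall among 91 members with a median LFC of 0.40, but by library size alone 8 rose and 4 fell. Mitochondrial ribosomal RNA rose in these polyA-selected libraries: mt-Rnr2 had 11740, 7784 and 10271 normalized counts in NaCl/PBS mice against 61278, 90000 and 70941 in FeSO4/PBS mice (LFC 2.90, SE 0.26, FDR 8.8e-07), and mt-Rnr1 had an LFC of 1.22. The 7 tested mitochondrial protein-coding genes had a median LFC of 0.09 that turned to -0.22 by library size alone, with mt-Nd1 up (0.84) and mt-Nd6 down (-0.55). The part of polyadenylation or RNA quality in the mt-Rnr2 value was not tested.

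Sequence around the annotated 5′ ends is shown here for some genes that changed, to let the promoters be read beside the values. The windows run from 250 bases before to 50 bases from the annotated 5′ end in GRCm39, matches were searched on both strands, and capitals mark a match. The E-box CACGTG, a site of MYC-type and clock factors, was in 8.65% of the 13818 tested genes with a window, in 11.9% of the 67 ribosome biogenesis genes and in 17.5% of the 63 translation factor genes, but also in 20.6% of the 34 ER unfolded protein response genes, in 23.8% of the 21 keratins, actins and tubulins and in 9.16% of the higher DEGs. The cAMP response element TGACGTCA was in 2.48% of all windows, in 12.5% of the 24 immediate-early genes and in 14.3% of the 21 clock genes. The AP-1 element TGACTCA was in 4.07% of all windows, 5.51% of the higher DEGs and 3.70% of the lower DEGs. It was also in 14.3% of the 42 interferon-stimulated genes and 13.3% of the 30 hepatocyte transcription factor and nuclear receptor genes. Most members of both lists fell. The sterol response element TCACNCCAC was in 1.30% of all windows and in 1 of 25 cholesterol synthesis genes. Annotated 5′ ends may lie away from the start used in liver, and a match is a description of letters.
Nop56 (chr2:130115558-130115857, plus strand, E-box): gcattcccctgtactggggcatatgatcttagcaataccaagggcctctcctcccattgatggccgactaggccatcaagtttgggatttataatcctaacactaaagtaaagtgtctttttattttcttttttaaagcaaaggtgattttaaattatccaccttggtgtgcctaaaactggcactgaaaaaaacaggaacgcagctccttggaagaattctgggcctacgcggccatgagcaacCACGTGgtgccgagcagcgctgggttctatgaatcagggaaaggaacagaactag
Rrs1 (chr1:9615383-9615682, plus strand, E-box): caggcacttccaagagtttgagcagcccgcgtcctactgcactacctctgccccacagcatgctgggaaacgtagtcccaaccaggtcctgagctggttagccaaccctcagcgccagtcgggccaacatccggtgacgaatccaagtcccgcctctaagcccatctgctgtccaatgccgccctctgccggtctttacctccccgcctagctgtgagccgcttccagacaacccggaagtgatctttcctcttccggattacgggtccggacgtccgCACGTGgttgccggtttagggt
Ier2 (chr8:85389434-85389733, minus strand, cAMP response element): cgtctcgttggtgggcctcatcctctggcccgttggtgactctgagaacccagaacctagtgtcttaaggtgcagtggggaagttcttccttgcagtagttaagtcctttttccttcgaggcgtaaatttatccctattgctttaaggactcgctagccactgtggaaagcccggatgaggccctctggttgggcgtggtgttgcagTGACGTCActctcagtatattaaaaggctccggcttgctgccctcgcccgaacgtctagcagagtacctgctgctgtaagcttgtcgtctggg
Hmgcs1 (chr13:120151665-120151964, plus strand, sterol response element): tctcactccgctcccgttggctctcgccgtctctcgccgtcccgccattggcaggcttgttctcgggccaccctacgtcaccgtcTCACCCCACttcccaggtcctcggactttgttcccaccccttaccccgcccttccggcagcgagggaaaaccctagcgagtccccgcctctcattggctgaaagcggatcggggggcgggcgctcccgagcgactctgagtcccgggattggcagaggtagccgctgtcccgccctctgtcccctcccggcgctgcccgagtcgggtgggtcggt
Plaur (chr7:24161625-24161924, plus strand, AP-1 element): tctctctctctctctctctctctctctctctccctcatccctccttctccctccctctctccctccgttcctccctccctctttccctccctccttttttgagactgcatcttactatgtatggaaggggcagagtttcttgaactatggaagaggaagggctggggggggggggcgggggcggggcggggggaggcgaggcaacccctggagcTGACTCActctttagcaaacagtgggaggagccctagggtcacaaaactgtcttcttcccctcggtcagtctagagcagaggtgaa

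Nop56, the partner of Nop58 in box C/D particles, carried its E-box just before the annotated start and had 194, 224 and 193 normalized counts in NaCl/PBS mice against 578, 516 and 524 in FeSO4/PBS mice (LFC 1.40, SE 0.13, FDR 9.5e-07). Rrs1, needed to assemble the large subunit, carried it inside the first 50 bases and had 219, 285 and 267 normalized counts in NaCl/PBS mice against 1062, 1183 and 1042 in FeSO4/PBS mice (LFC 2.09, SE 0.13, FDR 4.9e-08). Ier2, an immediate-early nuclear protein, rose with an LFC of 1.43. Both E-box genes stood apart between groups.

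Among the metabolic lists cholesterol synthesis had the largest share of members that fell. Its enzymes turn acetyl-CoA into sterols under control of the factor SREBP2, and here 2 of the 25 tested members rose and 17 fell (0 and 19 by library size alone), with a median LFC of -0.93. Hmgcs1, which makes HMG-CoA, had 17823, 16487 and 19565 normalized counts in NaCl/PBS mice against 4703, 3901 and 2639.9 in FeSO4/PBS mice (LFC -2.26, SE 0.29, FDR 2.4e-05). Idi1, an isomerase of isoprenoid units, had 1280.3, 1378 and 1702 normalized counts in NaCl/PBS mice against 308, 459 and 304 in FeSO4/PBS mice (LFC -2.02, SE 0.33, FDR 1.5e-04). The groups were apart in both. Srebf2, which encodes SREBP2, fell with an LFC of -0.68. Ebp, an isomerase, rose (0.46) except by library size alone. The list took 0.717% ± 0.035 (SD, n = 3) of the counts in the NaCl/PBS mice and 0.292% ± 0.056 (SD, n = 3) in the FeSO4/PBS mice.

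Hepatocyte transcription factors and nuclear receptors were mostly lower. Of this list 5 of the 30 tested members rose and 23 fell (2 and 25 by library size alone), with a median LFC of -0.90. Nr1i3, the xenobiotic receptor CAR, had 7675, 7839 and 5409 normalized counts in NaCl/PBS mice against 999.9, 1637 and 1671 in FeSO4/PBS mice (LFC -2.28, SE 0.20, FDR 8.1e-07). Foxa3, a pioneer factor of the liver, had 962, 978 and 918 normalized counts in NaCl/PBS mice against 199, 223 and 274 in FeSO4/PBS mice (LFC -2.04, SE 0.20, FDR 2.3e-06). Nr0b2, the corepressor SHP, had 429, 297 and 284 normalized counts in NaCl/PBS mice against 23.2, 84.4 and 114 in FeSO4/PBS mice (LFC -2.21, SE 0.40, FDR 3.9e-04). No FeSO4/PBS mouse reached the lowest control in these. Ppara, the fasting receptor for fatty acids, fell from 2991, 3520.5 and 2777 to 712, 1873 and 1775 (LFC -1.09, SE 0.26, FDR 0.0026). Hnf4a, the central hepatocyte factor, went the other way, with 12102, 12151 and 12230 normalized counts in NaCl/PBS mice against 22307, 23561 and 26046 in FeSO4/PBS mice (LFC 0.98, SE 0.11, FDR 6.9e-06), and Vdr, the vitamin D receptor, rose from a very low level to 29.2, 87.5 and 58.7 normalized counts (LFC 4.49, SE 0.54, FDR 1.2e-05).

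Carbohydrate genes split by step. In glycolysis 12 of the 22 tested members rose and 3 fell (8 and 6 by library size alone), with a median LFC of 0.48, with Pfkfb3, which makes the activator of phosphofructokinase, at 224, 241 and 273 normalized counts in NaCl/PBS mice against 1308, 1579.8 and 1549.5 in FeSO4/PBS mice (LFC 2.59, SE 0.21, FDR 4.2e-07) and Pfkfb1, its liver isoform, down (LFC -1.43, SE 0.23, FDR 1.6e-04). Of gluconeogenesis genes 5 of the 17 tested members rose and 1 fell (4 and 2 by library size alone), with a median LFC of 0.21, a median that turned to -0.12 by library size alone. Pck1, the committing step of glucose synthesis, had 43527, 48206 and 47515 normalized counts in NaCl/PBS mice against 3377, 14811 and 6516 in FeSO4/PBS mice (LFC -2.49, SE 0.41, FDR 1.6e-04). Among DEGs without overlap between groups, Rik and Gm names left out, Pck1 lost the most normalized counts. G6pc1, the last step, had an LFC of 0.78 (FDR 0.14). Tat, which degrades tyrosine, had 17656, 19125 and 22702 normalized counts in NaCl/PBS mice against 119070, 124470 and 87754 in FeSO4/PBS mice (LFC 2.48, SE 0.19, FDR 2.5e-07), and Got1, a cytosolic transaminase, had 3416, 2617 and 5870.1 normalized counts in NaCl/PBS mice against 19594, 21341 and 17120 in FeSO4/PBS mice (LFC 2.29, SE 0.26, FDR 6.0e-06). Tat and Got1 are classed with gluconeogenesis for the carbon they feed into it. In glycogen metabolism 3 rose and 2 fell of 15 (2 and 5 by library size alone), among them Ppp1r3g, a glycogen-targeting phosphatase subunit, at 18.0, 18.7 and 10.2 normalized counts in NaCl/PBS mice against 71.6, 802 and 278 in FeSO4/PBS mice (LFC 4.61, SE 0.79, FDR 2.4e-04), where FeSO4/PBS mouse 1 was the lowest treated mouse by a wide margin.

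Fatty acid lists had medians near 0 and a few large changes. In fatty acid oxidation and ketogenesis 7 of the 31 tested members rose and 3 fell (4 and 9 by library size alone), with a median LFC of 0.15, which turned to -0.17 by library size alone. Pdk4, which blocks pyruvate oxidation, had 95.7, 149 and 81.3 normalized counts in NaCl/PBS mice against 515, 14233 and 14043 in FeSO4/PBS mice (LFC 6.47, SE 0.92, FDR 5.2e-05). FeSO4/PBS mouse 1 was above all controls but far below the other two treated mice. Fgf21, a fasting hepatokine, rose from 10.1, 41.1 and 12.7 to 433, 72.2 and 255 normalized counts (LFC 3.61, SE 0.73, FDR 8.8e-04). In fatty acid synthesis 8 of the 21 tested members rose and 4 fell (5 and 9 by library size alone), with a median LFC of 0.13, which turned to -0.18 by library size alone and to -0.01 with upper quartile factors. Scd1, the stearoyl-CoA desaturase, gained the most normalized counts among DEGs without overlap between groups, Rik and Gm names left out. It had 151720, 86701 and 72348 normalized counts in NaCl/PBS mice against 274200, 245480 and 207780 in FeSO4/PBS mice (LFC 1.23, SE 0.29, FDR 0.0027), while Elovl6, an elongase, fell (LFC -1.05, SE 0.16, FDR 1.0e-04). Among apolipoproteins and lipoprotein assembly genes 12 of the 18 tested members rose and 1 fell (4 and 4 by library size alone), with a median LFC of 0.38, led by Apoa4, a chylomicron protein, at 4152, 6332 and 4786 normalized counts in NaCl/PBS mice against 36326, 26117 and 22030 in FeSO4/PBS mice (LFC 2.47, SE 0.25, FDR 2.8e-06), and Angptl8, an insulin-induced lipase regulator, fell (LFC -1.76, SE 0.23, FDR 2.8e-05).

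Bile acid, nitrogen and detoxification lists differed in how many members changed, and several changed no more often than all tested genes (27.2% rose and 27.3% fell). Conjugating enzymes rose about as often (27.8%) and fell less often (9.26%). Cytochrome P450 genes (18.97% and 12.07%) and transporters (12.5% each way) lay under both all-gene shares, as did amino acid catabolism genes. Only bile acid synthesis and urea cycle genes rose in a clearly larger share, and both fell in a smaller one. Of bile acid synthesis genes 6 of the 15 tested members rose and 1 fell (2 and 4 by library size alone), with a median LFC of 0.15, which turned to -0.17 by library size alone, and Hsd3b7, an enzyme of sterol ring modification, rose (LFC 1.31, SE 0.19, FDR 6.8e-05). The fall was that of Cyp7a1, the entry enzyme, with 6284, 7359.9 and 7236 normalized counts in NaCl/PBS mice against 104, 153 and 65.0 in FeSO4/PBS mice (LFC -6.01, SE 0.49, FDR 3.6e-07). Ch25h, which makes 25-hydroxycholesterol, was at or under 3 counts in each NaCl/PBS library and had 39.3, 49.8 and 39.5 normalized counts in FeSO4/PBS mice, at least 17.2-fold higher. Of transporters of bile acids and organic anions 2 of 16 rose and 2 fell (1 and 7 by library size alone), the falls being Slco1b2, which takes up bilirubin and bile acids (LFC -1.18, SE 0.22, FDR 5.3e-04), and Atp8b1, a canalicular lipid flippase (LFC -1.29, SE 0.12, FDR 1.0e-06). In the urea cycle and ammonia list 7 of the 13 tested members rose and 1 fell (5 and 3 by library size alone), with a median LFC of 0.59. Slc25a22, a mitochondrial glutamate carrier, had 3209, 3286 and 4093 normalized counts in NaCl/PBS mice against 9758, 14331 and 14539 in FeSO4/PBS mice (LFC 1.87, SE 0.19, FDR 2.1e-06), and Nags, which makes the activator of the first step, fell (LFC -1.05, SE 0.15, FDR 4.2e-05). Of 40 amino acid catabolism genes 8 rose and 6 fell (5 and 17 by library size alone), with Bcat2, a branched-chain transaminase, the largest fall (LFC -2.53, SE 0.27, FDR 3.9e-06). Of cytochrome P450 genes 11 of the 58 tested members rose and 7 fell (6 and 19 by library size alone), with a median LFC of 0.06, which turned to -0.25 by library size alone and -0.07 with upper quartile factors. Of conjugating enzymes 15 of the 54 tested members rose and 5 fell (10 and 12 by library size alone), with a median LFC of 0.21, which turned to -0.12 by library size alone, and reads of its near-identical gene copies can be split between them. Of the 19 tested major urinary protein genes, whose copies are near-identical, 0 passed edgeR's test, 0 had an unadjusted p under 0.05, and 0 passed with DESeq2.

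Secreted proteins and hormones of the insulin axis changed strongly in single members. Igfbp1, a binding protein that insulin suppresses, had 616, 3095 and 1216 normalized counts in NaCl/PBS mice against 30891, 49694 and 39743 in FeSO4/PBS mice (LFC 4.61, SE 0.46, FDR 2.1e-06). Irs1, an insulin receptor substrate, had 299, 195 and 419.8 normalized counts in NaCl/PBS mice against 63.5, 144 and 86.7 in FeSO4/PBS mice (LFC -1.63, SE 0.32, FDR 6.5e-04). Grb10, an adaptor that inhibits the insulin receptor, had 63.3, 69.2 and 71.1 normalized counts in NaCl/PBS mice against 282, 845 and 381 in FeSO4/PBS mice (LFC 2.89, SE 0.32, FDR 5.1e-06). Each stood apart between groups, while in the whole list 9 rose and 5 fell of 20 (6 and 9 by library size alone). Among activins and stress hepatokines 10 of the 18 tested members rose and 5 fell (8 and 6 by library size alone), with a median LFC of 0.76. Relative to all genes this median was 0.78, and 0.46 without FeSO4/PBS mouse 1 and 0.21 with at least 10 counts in every library. Gdf15, a hormone of cell stress that acts on the brainstem, had 101, 54.2 and 53.3 normalized counts in NaCl/PBS mice against 1299, 3304 and 2664 in FeSO4/PBS mice (LFC 5.11, SE 0.48, FDR 1.4e-06). The activin subunits diverged, with Inhbb at 16.5, 108 and 27.9 normalized counts in NaCl/PBS mice against 771, 751 and 894 in FeSO4/PBS mice (LFC 4.03, SE 0.49, FDR 1.4e-05) and Inhba at 151, 329 and 275 normalized counts in NaCl/PBS mice against 39.3, 34.6 and 52.3 in FeSO4/PBS mice (LFC -2.59, SE 0.35, FDR 3.7e-05).

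Metal genes outside the ferritin and heme set were led by metallothioneins. Mt1 had 4346, 10500 and 5594 normalized counts in NaCl/PBS mice against 77569, 51132 and 50032 in FeSO4/PBS mice (LFC 3.13, SE 0.30, FDR 1.5e-06). Mt2 had 2269, 11227 and 4848 normalized counts in NaCl/PBS mice against 77401, 55809 and 56356 in FeSO4/PBS mice (LFC 3.37, SE 0.42, FDR 1.6e-05). These metallothioneins, which bind zinc and copper, had no overlap between groups, with NaCl/PBS mouse 2 the highest control, and with the zinc transporters the list took 0.16% ± 0.057 (SD, n = 3) of the counts in the NaCl/PBS mice and 0.802% ± 0.11 (SD, n = 3) in the FeSO4/PBS mice. Slc30a10, a manganese exporter, rose from 497, 646 and 598 to 4902, 3482 and 4280 normalized counts (LFC 2.86, SE 0.21, FDR 1.6e-07). Of the iron handling list 7 of the 28 tested members rose and 4 fell (5 and 14 by library size alone), with a median LFC of -0.06. Hamp, hepcidin, which blocks iron export, had 20455, 18047 and 8276 normalized counts in NaCl/PBS mice against 56028, 34725 and 25888 in FeSO4/PBS mice (LFC 1.32, SE 0.33, FDR 0.0042), and Slc40a1, the exporter ferroportin, had 3575, 3503 and 4061 normalized counts in NaCl/PBS mice against 1032, 844 and 1025 in FeSO4/PBS mice (LFC -1.94, SE 0.14, FDR 1.2e-07). Hamp and Id1 (1.62) are targets of BMP signalling. Smad7, an inhibitor of that signalling, fell (LFC -0.99, SE 0.32, FDR 0.018) with FeSO4/PBS mouse 1 close to the controls, at 199, 66.1 and 77.8 against 216, 243 and 227 normalized counts. The Smad7 call was lost without FeSO4/PBS mouse 2 or 3. The part of BMP signalling in the values of these genes was not tested.

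Protein quality control rose selectively. Of heat shock proteins and co-chaperones 24 of the 42 tested members rose and 9 fell (10 and 14 by library size alone), with a median LFC of 0.35. Hspb8 had 3084, 3293 and 2910.1 normalized counts in NaCl/PBS mice against 17643, 16881 and 15063 in FeSO4/PBS mice (LFC 2.42, SE 0.12, FDR 7.8e-09), and its partner in selective autophagy, Bag3, had 294, 418 and 356 normalized counts in NaCl/PBS mice against 2988, 1945 and 1882 in FeSO4/PBS mice (LFC 2.68, SE 0.19, FDR 1.2e-07). The inducible chaperone Hspa1b went down, with 62.6, 50.5 and 44.9 normalized counts in NaCl/PBS mice against 16.1, 3.05 and 12.8 in FeSO4/PBS mice (LFC -2.31, SE 0.43, FDR 5.1e-04), as did Hsf2, a heat shock factor (LFC -1.66, SE 0.16, FDR 1.9e-06). Hspa1b has a near-identical copy, Hspa1a, whose reads can be split from it. In the ER unfolded protein response 8 of the 34 tested members rose and 4 fell (4 and 13 by library size alone), with a median LFC of 0.01, which turned to -0.30 by library size alone, with Hspa5, the ER chaperone BiP, up (LFC 1.05, SE 0.18, FDR 2.4e-04) and Atf6b down (LFC -1.08, SE 0.16, FDR 6.3e-05). Of the integrated stress response list, driven by ATF4, 15 of the 30 tested members rose and 2 fell (13 and 5 by library size alone), with a median LFC of 0.73. Its members Slc7a1, an arginine transporter (LFC 3.48, SE 0.29, FDR 4.2e-07), Ddit4, an mTOR inhibitor (LFC 3.19, SE 0.23, FDR 1.5e-07), and Ppp1r15a, which restores translation (LFC 2.50, SE 0.18, FDR 1.4e-07), were apart between groups, whereas Trib3, a pseudokinase often used as a readout of ATF4, had 229, 109 and 209.9 against 177, 123 and 133 normalized counts (FDR 0.26).

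Degradation genes moved by small steps. Of proteasome subunits 24 of the 48 tested members rose and 5 fell (8 and 11 by library size alone), with a median LFC of 0.28, which turned to -0.04 by library size alone. Psmd8, a regulatory particle subunit, rose (LFC 1.24, SE 0.12, FDR 1.3e-06) and the immunoproteasome subunit Psmb9 fell (LFC -1.10, SE 0.24, FDR 0.0014). Of autophagy and lysosome genes 20 of the 46 tested members rose and 9 fell (13 and 15 by library size alone), with a median LFC of 0.23, which turned to -0.09 by library size alone. Sqstm1, the autophagy receptor p62, had 5686, 5451 and 5863 normalized counts in NaCl/PBS mice against 38151, 23677 and 24208 in FeSO4/PBS mice (LFC 2.34, SE 0.18, FDR 2.8e-07), and Tfeb, the lysosomal master regulator, fell from 142, 147 and 139.7 to 83.7, 18.3 and 31.9 (LFC -1.66, SE 0.38, FDR 0.0021).

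DNA damage, hypoxia and death genes were mixed. In the p53 target list 14 of the 32 tested members rose and 5 fell (10 and 7 by library size alone), with a median LFC of 0.54. Plk3, a stress kinase, had 411, 1112 and 615 normalized counts in NaCl/PBS mice against 5328, 6784 and 5407 in FeSO4/PBS mice (LFC 3.04, SE 0.29, FDR 1.8e-06), and Mdm2, which degrades p53, had 473, 511 and 469 normalized counts in NaCl/PBS mice against 1112, 952 and 993 in FeSO4/PBS mice (LFC 1.07, SE 0.12, FDR 5.7e-06). Bbc3, the killer protein PUMA, fell (LFC -1.91, SE 0.34, FDR 3.0e-04). Of hypoxia-inducible factor targets 12 of the 23 tested members rose and 3 fell (8 and 4 by library size alone), with a median LFC of 0.48, with Hilpda, a lipid droplet protein, at 12.9, 36.5 and 30.5 normalized counts in NaCl/PBS mice against 316, 1815 and 1018 in FeSO4/PBS mice (LFC 5.33, SE 0.55, FDR 2.9e-06), and Hif1a itself up (LFC 1.57, SE 0.17, FDR 3.9e-06), while Vhl, which marks it for degradation, fell (LFC -1.16, SE 0.20, FDR 2.0e-04). Among BCL2 family and death receptor genes 11 rose and 9 fell of 31 (8 and 11 by library size alone). These shares were 35.5% and 29.0%, against 27.2% and 27.3% of all tested genes. Both the killer Bcl2l11, also called BIM (LFC 2.48, SE 0.29, FDR 9.6e-06), and the protector Mcl1 (LFC 1.15, SE 0.11, FDR 1.5e-06) rose, and the adaptor Fadd fell (LFC -1.67, SE 0.20, FDR 1.1e-05). For cell division, of 21 G1 cyclin and inhibitor genes 6 rose and 9 fell (1 and 12 by library size alone). The largest rise was that of E2f7, a repressor of the cell cycle (LFC 2.11, SE 0.43, FDR 1.0e-03), and the largest fall that of Ccnd1, cyclin D1, at 3969.6, 3458 and 2564 normalized counts in NaCl/PBS mice against 849, 1063 and 977 in FeSO4/PBS mice (LFC -1.79, SE 0.26, FDR 6.0e-05). In the mitosis list only Plk1 of 23 members passed the test (LFC 2.46, SE 0.74, FDR 0.012), from 6.47, 4.68 and 3.39 to 43.3, 12.2 and 26.8 normalized counts, a call lost without FeSO4/PBS mouse 1, and the list median was 1.00, -0.16 and -0.54 in FeSO4/PBS mice 1, 2 and 3, in both directions around 0.

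Innate immune genes moved in both directions, with interferon-stimulated genes mostly lower. Of interferon-stimulated genes 3 of the 42 tested members rose and 28 fell (2 and 35 by library size alone), with a median LFC of -0.80. Irf1, an interferon-induced transcription factor, had 934, 1060.4 and 781 normalized counts in NaCl/PBS mice against 341, 211 and 205 in FeSO4/PBS mice (LFC -1.87, SE 0.19, FDR 2.8e-06). Iigp1c, an interferon-induced GTPase that is not a member of this list, had 2455, 2063 and 2091 normalized counts in NaCl/PBS mice against 275, 297 and 337 in FeSO4/PBS mice (LFC -2.86, SE 0.14, FDR 7.4e-09). FeSO4/PBS mice lay under the controls in each, and Rsad2, an antiviral radical enzyme, was among the 3 list members that rose (LFC 1.27, SE 0.19, FDR 9.6e-05). Of 18 chemokines 4 rose and 5 fell (2 and 7 by library size alone). These shares, 22.2% and 27.8%, were near the 27.2% and 27.3% of all tested genes. Cxcl2, which attracts neutrophils, had 0.72, 26.2 and 0.85 normalized counts in NaCl/PBS mice against 106, 192 and 143 in FeSO4/PBS mice (LFC 4.08, SE 0.73, FDR 5.6e-04), with NaCl/PBS mouse 2 the only control above 1 normalized count. Cxcl12, which holds leukocytes through CXCR4, had 8515, 7993 and 7541 normalized counts in NaCl/PBS mice against 1667, 2517 and 2444 in FeSO4/PBS mice (LFC -1.86, SE 0.14, FDR 2.1e-07), and Cxcl11, an interferon-induced attractant of T cells, had 120.1, 126 and 120.2 normalized counts in NaCl/PBS mice against 14.1, 14.2 and 8.93 in FeSO4/PBS mice (LFC -3.27, SE 0.48, FDR 7.3e-05).

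Interleukin-1 genes held members that moved apart, while antigen presentation genes changed about as often as all tested genes. Il1r2, the decoy receptor of interleukin-1, had 2.88, 4.68 and 3.39 normalized counts in NaCl/PBS mice against 166, 123 and 116 in FeSO4/PBS mice (LFC 5.19, SE 0.39, FDR 1.6e-07). Pycard, the inflammasome adaptor ASC, had 36.0, 31.8 and 29.6 normalized counts in NaCl/PBS mice against 7.06, 7.12 and 1.28 in FeSO4/PBS mice (LFC -2.58, SE 0.57, FDR 0.0016). In that list 9 of the 23 tested members rose and 3 fell (6 and 7 by library size alone), with a median LFC of 0.31, which turned to -0.01 by library size alone. Relative to all genes that median was 0.33, and 0.10 without NaCl/PBS mouse 1 and 0.82 without NaCl/PBS mouse 2. For antigen presentation 7 of 27 members rose and 7 fell (5 and 11 by library size alone), or 25.9% each way. Over all tested genes the shares were 27.2% and 27.3%. H2-D1, a class I heavy chain that shares reads with its relatives, rose (LFC 0.91, SE 0.14, FDR 9.8e-05). Ciita, the class II transactivator, fell (LFC -2.03, SE 0.41, FDR 9.2e-04).

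Clotting, cytoskeleton and matrix lists held a few large rises. Thbd, thrombomodulin, which turns thrombin to an anticoagulant role, had 84.2, 147 and 99.0 normalized counts in NaCl/PBS mice against 1813, 2623 and 2649 in FeSO4/PBS mice (LFC 4.43, SE 0.30, FDR 8.7e-08). Plaur, the urokinase receptor, whose promoter window holds an AP-1 element, had 15.1, 26.2 and 11.8 normalized counts in NaCl/PBS mice against 221, 358 and 249 in FeSO4/PBS mice (LFC 3.97, SE 0.38, FDR 1.4e-06), and Plat, tissue plasminogen activator, had 11.5, 4.68 and 5.08 normalized counts in NaCl/PBS mice against 26.2, 112 and 61.2 in FeSO4/PBS mice (LFC 3.17, SE 0.53, FDR 1.9e-04). The groups were apart in each. Of coagulation and fibrinolysis genes 8 of the 29 tested members rose and 4 fell (6 and 11 by library size alone), with a median LFC of 0.20, which turned to -0.13 by library size alone. Of 28 complement genes 2 rose and 5 fell (1 and 22 by library size alone). The largest fall of these was that of C3ar1, a receptor of myeloid cells (LFC -3.74, SE 0.43, FDR 7.3e-06). The shares were 27.6% and 13.8% for coagulation and 7.14% and 17.9% for complement, against 27.2% and 27.3% of all tested genes. Neither list changed more often than all genes to a clear degree. Of keratins, actins and tubulins 7 of the 21 tested members rose and 3 fell (7 and 4 by library size alone), with a median LFC of 0.36. The hepatocyte keratins Krt8, at 2199, 2146 and 2314 normalized counts in NaCl/PBS mice against 11638, 14246 and 10674 in FeSO4/PBS mice (LFC 2.46, SE 0.17, FDR 9.0e-08), and Krt18, at 2421, 2378 and 1982 normalized counts in NaCl/PBS mice against 8719.9, 9896 and 8477 in FeSO4/PBS mice (LFC 2.00, SE 0.15, FDR 1.6e-07), rose together, as did the tubulin Tubb6 (LFC 3.39, SE 0.26, FDR 2.3e-07) and the actin Actg1 (LFC 2.50, SE 0.26, FDR 3.1e-06). Of matrix and stellate activation genes 12 of the 29 tested members rose and 3 fell (9 and 5 by library size alone), with a median LFC of 0.45, with Thbs1, thrombospondin, at 21.6, 19.6 and 16.9 normalized counts in NaCl/PBS mice against 188, 626 and 395 in FeSO4/PBS mice (LFC 4.36, SE 0.42, FDR 1.7e-06), while the fibrillar collagen Col1a1 had 66.2, 43.9 and 81.3 against 80.6, 58.0 and 44.6 normalized counts (FDR 0.88).

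Cell type markers moved with these results, and in bulk RNA fewer cells of a type and less RNA per cell cannot be told apart. Of 15 Kupffer cell markers 0 rose and 11 fell (0 and 15 by library size alone), with a median LFC of -0.72, and the summed level of the list was 15088 to 17407 normalized counts in NaCl/PBS mice and 7972 to 8937 in FeSO4/PBS mice. Clec4f, a lectin found in Kupffer cells, had 2070.1, 1959.9 and 2590.1 normalized counts in NaCl/PBS mice against 1449, 1371 and 1460.2 in FeSO4/PBS mice (LFC -0.63, SE 0.15, FDR 0.0031), and Csf1r, the macrophage growth receptor, had 1254, 1352 and 1523 normalized counts in NaCl/PBS mice against 564, 631 and 652 in FeSO4/PBS mice (LFC -1.16, SE 0.17, FDR 5.0e-05). Slc40a1, given above with the iron handling genes, is itself a member of the Kupffer cell list. It had the lowest LFC of the list (-1.94) and is part of the summed level. C3ar1 and many interferon-stimulated genes are also expressed by macrophages. The part of fewer or less active Kupffer cells in the values of Slc40a1 and these genes was not tested. Of 18 sinusoidal endothelial markers 2 rose and 9 fell (2 and 13 by library size alone), with sums of 12618 to 14355 and 9318 to 11952. Kdr, a VEGF receptor, had 1211, 1062 and 1306 normalized counts in NaCl/PBS mice against 157, 402 and 412 in FeSO4/PBS mice (LFC -1.89, SE 0.31, FDR 1.7e-04), while Lyve1, a hyaluronan receptor, had 159, 336 and 262 normalized counts in NaCl/PBS mice against 1897, 1666 and 1793 in FeSO4/PBS mice (LFC 2.83, SE 0.24, FDR 4.8e-07). Stab2, another sinusoidal marker, had an LFC of -0.48 (FDR 0.19). So the endothelial list did not move as a unit.

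Neutrophil and monocyte markers were higher in the FeSO4/PBS mice. The summed level was 1351 to 3892 normalized counts in NaCl/PBS and 15133 to 46087 in FeSO4/PBS mice, a sum that Lcn2 dominates, which hepatocytes also make. Of 15 tested members 8 rose and 2 fell. Ly6g, a neutrophil marker of the list, was too low to test. It had 0, 0 and 1 reads in NaCl/PBS mice and 1, 3 and 1 in FeSO4/PBS mice. S100a8 had 22.3, 57.0 and 9.31 normalized counts in NaCl/PBS mice against 215, 182 and 163 in FeSO4/PBS mice (LFC 2.68, SE 0.41, FDR 9.8e-05) and S100a9 had 32.4, 88.8 and 32.2 normalized counts in NaCl/PBS mice against 408, 357 and 315 in FeSO4/PBS mice (LFC 2.84, SE 0.33, FDR 7.7e-06), both abundant in neutrophils, and Mpo, made in immature neutrophils, was at 0 in all 6 libraries. The falls were Ccr2, a receptor of inflammatory monocytes (LFC -1.78, SE 0.42, FDR 0.0025), and Prtn3, a protease of neutrophil granules, with 70.5, 132 and 102 normalized counts in NaCl/PBS mice against 6.05, 0 and 1.28 in FeSO4/PBS mice (LFC -5.25, SE 0.62, FDR 9.7e-06). Of 15 lymphocyte markers 2 fell. Hemoglobin genes passed the test with overlapping groups, Hbb-bs having 746, 1083 and 1859.6 against 2281, 2905 and 1427 normalized counts, a call that was lost with DESeq2, under other scalings and without any 1 of 4 mice. The part of blood or leukocyte content in the immune results was not tested.

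**Figure D4:**
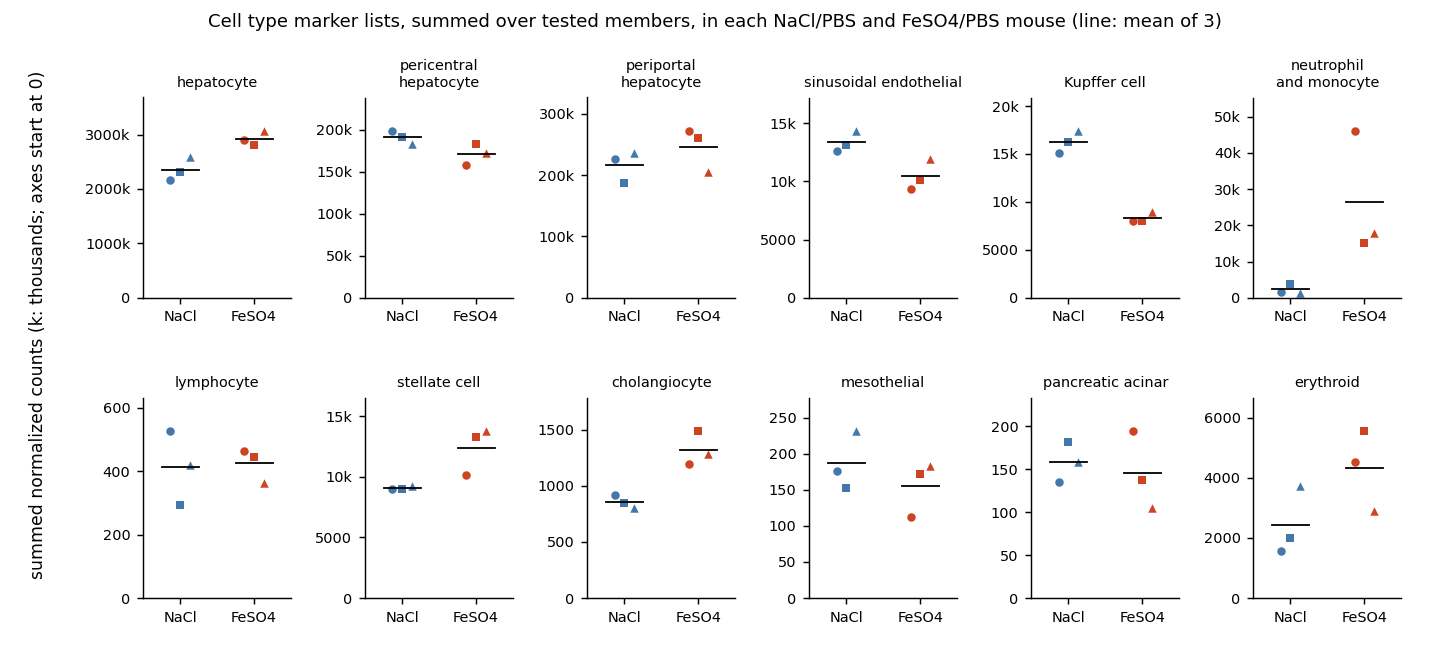
Summed normalized counts of each marker list over its tested members in each mouse, with axes that start at 0 and own ranges. Blue is NaCl/PBS, red FeSO4/PBS, and lines are means of 3. Kupffer cell and sinusoidal endothelial sums were lower in all FeSO4/PBS mice than in any NaCl/PBS mouse. Hepatocyte, neutrophil and monocyte, cholangiocyte and stellate sums were higher in all of them. Pericentral, periportal, lymphocyte, erythroid, mesothelial and acinar sums overlapped. The sums depend on the TMM scaling. As a mean share of counts the hepatocyte list took 13.70% in NaCl/PBS and 13.65% in FeSO4/PBS mice. Stellate shares overlapped, at 0.0520% to 0.0541% and 0.0460% to 0.0662%.

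Hepatocyte zonation genes changed in a part of the pericentral list. Of 15 pericentral markers 1 rose and 6 fell (0 and 9 by library size alone), with a median LFC of -0.25. Lgr5, a WNT target of hepatocytes at the central vein, had 217, 188 and 172 normalized counts in NaCl/PBS mice against 15.1, 16.3 and 38.3 in FeSO4/PBS mice (LFC -3.08, SE 0.39, FDR 1.8e-05), and Axin2, another, had 139.5, 187 and 189 normalized counts in NaCl/PBS mice against 76.6, 47.8 and 49.7 in FeSO4/PBS mice (LFC -1.56, SE 0.28, FDR 3.7e-04). Glul, glutamine synthetase, also pericentral, had 18129, 22706 and 17721 normalized counts in NaCl/PBS mice against 32236, 24800 and 31294 in FeSO4/PBS mice (LFC 0.59, SE 0.15, FDR 0.0045) and rose, a call that was lost by library size alone. Cyp2e1, a pericentral enzyme, had an LFC of -0.38 (FDR 0.064). Of 12 periportal markers 6 rose and 2 fell (2 and 3 by library size alone), with a median LFC of 0.32 that turned to -0.004 by library size alone. Stellate cell markers gave 4 rises and 1 fall of 13 (1 and 2 by library size alone), and Lrat, their retinol storage enzyme, fell (LFC -1.31, SE 0.35, FDR 0.0058). Sox9, a cholangiocyte and progenitor factor, had 41.0, 58.9 and 29.6 normalized counts in NaCl/PBS mice against 238, 603 and 395 in FeSO4/PBS mice (LFC 3.26, SE 0.35, FDR 3.9e-06), while the other cholangiocyte markers Krt19 and Epcam had LFCs of -0.18 (FDR 0.75) and 0.49 (FDR 0.34). Pancreatic acinar markers were near absent, with 9 of 12 at 0 in all 6 libraries. Mesothelial sums were 152 to 231 and 112 to 182 normalized counts in the NaCl/PBS and FeSO4/PBS mice.

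Genes often used as references were not stable. Of 13 such genes 9 rose and 0 fell (4 and 2 by library size alone), with a median LFC of 0.40, which was 0.08 by library size alone. Actb had 4426, 5976 and 5239 normalized counts in NaCl/PBS mice against 13452, 12219 and 12170 in FeSO4/PBS mice (LFC 1.27, SE 0.14, FDR 3.9e-06) and Gapdh had 5661, 6030.3 and 5692 normalized counts in NaCl/PBS mice against 16841, 10704 and 10163 in FeSO4/PBS mice (LFC 1.12, SE 0.17, FDR 7.4e-05). Tbp had 209, 221 and 205 against 229, 242 and 270.4 normalized counts (LFC 0.22, FDR 0.15), and Sdha had an LFC of 0.03 (FDR 0.82).

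The FeSO4 effect could be set beside that in mice that had DEX in place of PBS, which shares no library with it. Of the 1730 higher DEGs 1103 (63.8%) were also higher DEGs of FeSO4/DEX against NaCl/DEX mice, which is 74.8% of the 1474 there. For the lower DEGs 1002 of 2040 (49.1%) were shared, which is 73.6% of 1362. The interaction test found 857 genes, 6.18% of those tested, whose FeSO4 effect differed between the DEX and PBS arms. The LFC with DEX is taken against NaCl/DEX mice, so a response to DEX in the NaCl mice can also produce a difference. Whether a difference arose in the NaCl or in the FeSO4 mice was not tested. Of the ribosome biogenesis genes 21 of 67 differed, with a median LFC of 1.23 with PBS and 0.60 with DEX. Nolc1 had an LFC of 2.00 with PBS and 0.24 with DEX (interaction -1.76, FDR 5.5e-04), and Nop56 1.40 and 0.02 (interaction -1.38, FDR 4.9e-04). Cholesterol synthesis had medians of -0.93 with PBS and -1.07 with DEX, and cytosolic ribosomal proteins 0.63 and 0.35. Immediate-early genes had a median of 1.62 with PBS and 1.97 with DEX, with 3 of 24 that differed. Lgr5 had LFCs of -3.08 with PBS and -0.43 with DEX (interaction 2.65, FDR 0.011), and Kdr of -1.89 and -0.11 (interaction 1.78, FDR 0.025).

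**Figure D5:**
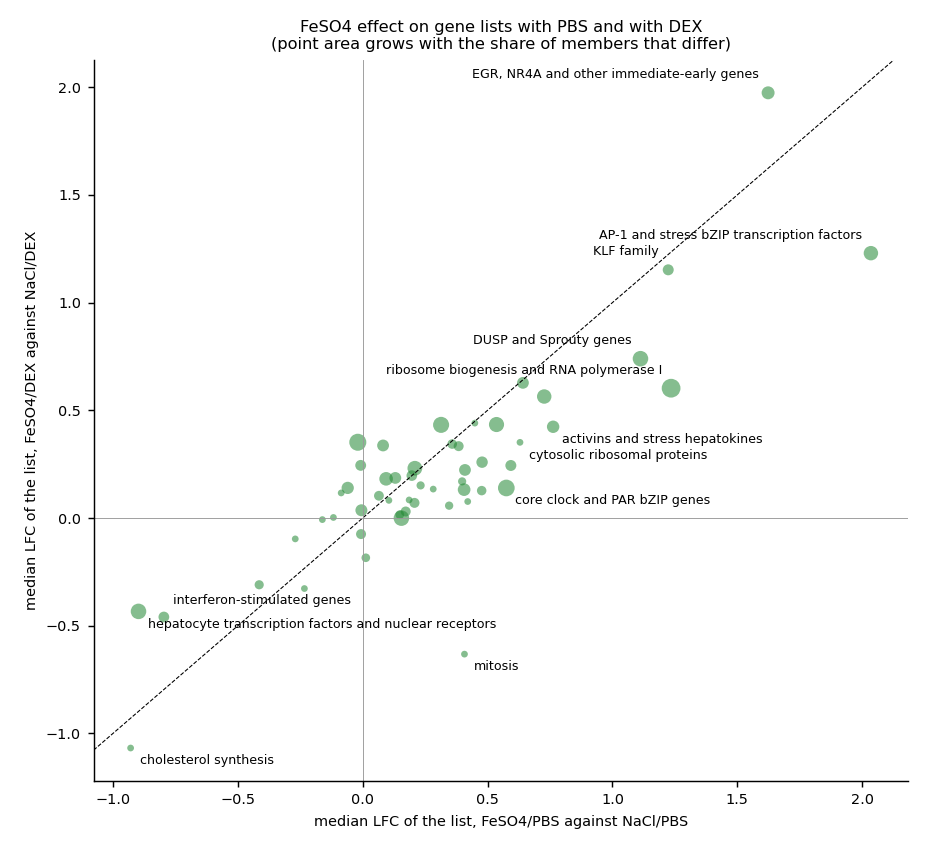
Each point is a gene list, placed by its median LFC of FeSO4/PBS against NaCl/PBS mice and of FeSO4/DEX against NaCl/DEX mice, with an area that grows with the share of members whose effect differed by the interaction test. The dashed line marks equal medians. Ribosome biogenesis lies below it at 1.23 and 0.60 and cholesterol synthesis near it at -0.93 and -1.07.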

How the data were processed

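Livers of 12 mice were sequenced as polyA-selected, stranded, single-end libraries, and the 6 libraries with PBS as the second injection carry the comparison. The deposited table holds raw counts of reads per Ensembl gene, made by the authors with STAR 2.7.10b on mm39, and the submitters' processing notes also name FastQC and DESeq2. Which strand column of the STAR counts was taken is not given in the sources used here, and reads of overlapping genes, gene families and near-identical copies can be split between them. All columns were mapped to labelled samples. Symbols and coordinates came from the GENCODE annotation of GRCm39.

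Counts were filtered with filterByExpr and scaled with TMM factors, and a model with 4 groups was fitted to all 12 libraries with edgeR 4.0.16 (glmQLFit and glmQLFTest, R 4.3.3, limma 3.58.1), with Benjamini-Hochberg adjustment over 13857 genes. The FeSO4 effect was tested with PBS and with DEX, and their difference as an interaction. Thresholds were an adjusted p of 0.05 and, for DEGs, |LFC| above 1. The fit was tested on simulated data. Alternatives were DESeq2 1.42.0, its size factors, library size alone, upper quartile factors, other filters on low counts, a test against an LFC of 1, a replicate block, a fit of 6 libraries, and each replicate left out. Tables and plots used Python 3.11.15, pandas 2.3.3 and matplotlib 3.10.9.

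Total counts were 16335651 to 23827340 per library, and genes with few counts are measured less precisely. Where a group was at or under 3 counts in each library, the fold is a lower bound against 3 counts per library. Genes named in the text are anchors of each list, the 2 largest rises and falls that passed in each list, and the 15 largest, the 15 of smallest p and the 15 with most counts gained or lost in each direction, with 5 lncRNA genes each way, among DEGs without overlap between groups, leaving out Rik and Gm names, with a higher-group mean of at least 100 normalized counts. Cebpd, Col1a1, Csf1r, Ddit4, Eif2ak2, Eif6, Plk3, Polr1b, Rrp12, Rrs1, Slc30a10, Slc7a1 and mt-Rnr1 fall outside this rule and were chosen after their values were seen. Some genes are not reported here. The comparison, the lists and the tests were chosen with earlier results of these data known. Promoter windows were read from the GRCm39 genome at the outermost annotated 5′ end of each gene.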

Additional observations from a re-analysis of the deposited data

Results flagged for a closer look

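By edgeR's interaction test 857 genes had an FeSO4 effect that differed between mice given DEX and mice given PBS. The genes of the report among them are given here with the interaction, the LFC of FeSO4 with DEX minus that with PBS, in parentheses. Genes that rose with PBS and had a lower LFC with DEX were Actb (-0.68), Adcy1 (-2.86), Ddit4 (-3.55), Dusp1 (-1.95), Dusp8 (-2.83), Eif1a (-1.35), Eif4ebp1 (-0.70), Gadd45b (-3.07) and Got1 (-1.31). The same held for Lcn2 (-2.84), Lyve1 (-2.13), Mrap (-2.97), Nolc1 (-1.76), Nop56 (-1.38), Nop58 (-1.41), Pfkfb3 (-2.33), Rrp12 (-1.07) and Rrs1 (-1.22). The same held for Slc10a6 (-3.98), Snhg15 (-1.24), Snhg3 (-2.44), Sphk1 (-2.15), Tat (-2.20), Thbd (-2.30), Tnfrsf12a (-0.97) and Vdr (-3.11). Genes that fell with PBS and had a higher LFC with DEX were Angptl8 (2.26), BC024386 (1.23), Bcat2 (1.47), Cxcl11 (2.7), Dbp (1.66), Iigp1c (1.08) and Irf1 (1.87). Further genes of this kind were Irs1 (1.94), Kdr (1.78), Lgr5 (2.65), Mblac2 (1.61), Ogt (0.63), Paqr7 (1.68) and Tnfsf10 (1.64). An LFC lower with DEX than with PBS was also found for mt-Nd6 (-0.88), which fell with PBS. Each had an adjusted p of 0.05 or less. A response to DEX in the NaCl mice can give such an interaction as well as a changed response to FeSO4, and which held was not tested.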

How the results depend on the processing

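Of 1730 higher and 2040 lower DEGs, a test against an LFC of 1 left 986 and 935, and library size alone gave 3073 lower ones. Without a minimum fold, library size alone gave 2285 higher and 5829 lower genes. Interaction genes numbered 1309 with DESeq2 and 1459 with no filter on low counts, against 857. With each replicate left out, higher DEGs ranged from 1642 to 1818, lower DEGs from 1932 to 2079 and interaction genes from 537, without NaCl/PBS mouse 1, to 1018, without FeSO4/PBS mouse 1, with 545 without NaCl/PBS mouse 3. The causes were not tested. Relative to the median of all genes, the median LFC of the insulin and IGF list was -0.004 and ranged from -0.015 to 0.10 with a replicate left out, turning to 0.096 without FeSO4/PBS mouse 1 and to 0.10 without NaCl/PBS mouse 2, and that of chemokines to -0.42 with at least 10 counts in every library. The LFC of Sdha, which did not pass the test, turned to -0.29 by library size alone. Of 2407 values of genes named in the report under alternatives, 2373 kept their direction and side of the threshold. The replicate block gave 1700 higher and 2021 lower DEGs and 729 interaction genes. The numbers share only a label, since deviations of same-numbered mice correlated at -0.011, -0.075 and 0.023. Depth limits genes with few counts.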
